A study of Mus musculus with 6 samples.

Results

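Cdkn1a, Gdf15, Nupr1, Tagln2, Fam46a, Mdm2, Ccng1, Phlda3, Trp53inp1 and Bax are 10 genes of cell cycle arrest and stress responses, out of 28324 genes in the count table. They were chosen by name from the p53 and stress pathways, and several were selected on their high counts in a small group of oligodendrocytes of treated mice. For that reason the difference between treatments in oligodendrocytes is given here as a description without a test, and these genes are tested in the other cell classes. The cells came from the dissected and dissociated hippocampus of 6 APP/PS1 mice, which all carry mutant amyloid precursor protein and presenilin 1 transgenes under the mouse prion protein promoter (strain B6.Cg-Tg(APPswe,PSEN1dE9)85Dbo/Mmjax), all aged 10 weeks. The 3 treated mice were given an antisense oligonucleotide, or ASO, and the 3 control mice phosphate buffered saline, or PBS. Because saline was given in place of a control oligonucleotide, effects of oligonucleotides in general and of the targeted RNA cannot be told apart. The title of the study names lowering of IDOL, the ubiquitin ligase encoded by Mylip, while the ASO's sequence, dose and duration were not found in the labels. Drop-Seq captures single cells on barcoded beads in droplets and counts unique molecular identifiers (UMIs) from the 3' ends of transcripts.

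The transcription factor p53 is kept low by the ubiquitin ligase Mdm2 and accumulates after DNA damage and other stress, when it switches on genes that stop the cell cycle, such as Cdkn1a, or promote cell death, such as Bax. Gdf15 and Nupr1 also respond to amino acid shortage and to stress of the endoplasmic reticulum through the transcription factors ATF4 and CHOP, so the pathways overlap. Mature oligodendrocytes, which make myelin, have left the cell cycle.

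The windows from 250 bases before to 50 bases after the annotated start were taken from RefSeq on GRCm38.p6, where 9 of the 10 genes had at least 1 window and Fam46a is named Tent5a. Those printed here are the windows in which a motif of p53 or of the stress factors ATF4 and CHOP was found, each read 5' to 3' on the strand of its gene, with the match in capitals. The Cdkn1a window at chr17:29090729-29091028, on the plus strand, held 2 matches to the p53 half-site, at 73 and 51 bases before its start. Another Cdkn1a window, chr17:29093519-29093818, of a different annotated start, held no match to any of the motifs. The Mdm2 window is chr10:117710709-117711008, the Ccng1 window chr11:40755237-40755536 and the Bax window chr7:45466849-45467148, all on the minus strand and each with 1 match to the half-site. The Nupr1 window is chr7:126625421-126625720 on the minus strand, and its match is the CEBP-ATF response element read on the opposite strand.
Cdkn1a: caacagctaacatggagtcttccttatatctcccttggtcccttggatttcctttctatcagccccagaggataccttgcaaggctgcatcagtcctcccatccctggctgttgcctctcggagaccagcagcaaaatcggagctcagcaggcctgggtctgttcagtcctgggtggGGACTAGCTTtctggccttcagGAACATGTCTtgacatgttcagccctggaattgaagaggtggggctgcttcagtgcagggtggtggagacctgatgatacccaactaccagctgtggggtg
Mdm2: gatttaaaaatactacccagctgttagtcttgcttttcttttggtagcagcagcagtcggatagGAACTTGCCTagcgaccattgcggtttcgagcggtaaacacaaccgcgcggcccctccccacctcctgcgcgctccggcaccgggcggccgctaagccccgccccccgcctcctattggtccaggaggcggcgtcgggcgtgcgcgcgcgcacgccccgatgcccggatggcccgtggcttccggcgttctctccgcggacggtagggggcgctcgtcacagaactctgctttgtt
Ccng1: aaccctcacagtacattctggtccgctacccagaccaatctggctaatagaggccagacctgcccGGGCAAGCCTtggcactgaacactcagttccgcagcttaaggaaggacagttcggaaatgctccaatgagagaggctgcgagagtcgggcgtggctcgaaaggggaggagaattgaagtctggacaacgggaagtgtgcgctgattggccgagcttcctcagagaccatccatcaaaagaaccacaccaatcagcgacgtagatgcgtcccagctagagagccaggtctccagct
Bax: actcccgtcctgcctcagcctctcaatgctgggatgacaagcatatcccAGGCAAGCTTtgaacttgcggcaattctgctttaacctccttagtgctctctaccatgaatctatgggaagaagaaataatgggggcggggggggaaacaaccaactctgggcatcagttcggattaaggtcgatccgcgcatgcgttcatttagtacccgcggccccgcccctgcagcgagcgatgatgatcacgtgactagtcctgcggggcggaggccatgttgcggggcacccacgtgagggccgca
Nupr1: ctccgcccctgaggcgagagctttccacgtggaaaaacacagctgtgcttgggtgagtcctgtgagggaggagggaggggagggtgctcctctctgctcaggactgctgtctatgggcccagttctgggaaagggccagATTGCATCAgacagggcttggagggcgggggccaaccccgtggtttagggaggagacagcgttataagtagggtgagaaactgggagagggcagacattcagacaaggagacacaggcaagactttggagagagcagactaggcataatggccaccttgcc
Both strands were searched for the p53 half-site of 10 letters, for the CEBP-ATF response element TGATGNAAN and for the cyclic AMP response element TGACGTCA, and matches may overlap. The half-site occurred in 8.36% of all 32851 windows of this length and in 4 of the 12 member windows. Those 4 windows belong to 4 of the 9 member genes with a window. The CEBP-ATF element occurred in 3.95% of all windows and in 1 of the 12 member windows, that of Nupr1. The cyclic AMP element occurred in 1.79% of windows and in none of the members. A match describes the letters of the window and is no evidence of binding.

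After removal of 193 called doublets, 12630 cells in 17 classes named by the authors remained, with 569 to 1999 UMIs per cell. The ASO mice gave 1752 to 2827 cells and 2007205 to 3156614 UMIs each, and the PBS mice 1830 to 2107 cells and 2137687 to 2428466 UMIs. Oligodendrocytes numbered 741, 519 and 404 in the ASO mice and 455, 452 and 429 in the PBS mice, with median UMIs per cell of 1038 over ASO and 1034 over PBS cells. Their summed oligodendrocyte markers (Mbp, Mobp, Mog, Mag, Cldn11 and Cnp) reached 20800 counts per 1000000 UMIs (CPM), against 1460 CPM in the next class, oligodendrocyte precursors (named polydendrocytes by the authors), so the markers bear out the class name. Mylip, the targeted gene, had 38.6, 30.2 and 33.9 CPM over all cells of the ASO mice, against 60.3, 70.0 and 74.9 CPM in the PBS mice, so the groups did not overlap. Markers of other tissues differed between libraries, as choroid plexus markers reached 2050 to 6190 CPM in the oligodendrocytes of the ASO mice and of PBS replicates 1 and 2 but 60.6 CPM in those of PBS replicate 3, and erythroid markers reached 1300 CPM in ASO replicate 2 but at most 153 CPM elsewhere. The barcodes of 20 cells also occurred in another library.

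Cdkn1a, which encodes the cyclin-dependent kinase inhibitor p21 and is a classical p53 target, was well above every PBS mouse in the oligodendrocytes of ASO replicates 1 and 3. It had 59, 27 and 58 UMIs in the ASO mice and 7, 23 and 5 UMIs in the PBS mice. As a level this was 70.7, 47.8 and 130 CPM in the ASO mice, against 13.3, 47.6 and 10.4 CPM in the PBS mice. ASO replicate 2 and PBS replicate 2 lay at nearly the same level, while the other ASO mice were above all PBS mice. The means were 82.8 ± 42.4 CPM in ASO and 23.8 ± 20.7 CPM in PBS oligodendrocytes (SD, n = 3 each), and the edgeR fit across all genes gave a log2 fold change of 1.72 (SE 0.392). The log2 fold change was 1.31 without ASO replicate 3 and 2.68 without PBS replicate 2. The share of oligodendrocytes with a Cdkn1a UMI was 4.05, 4.82 and 7.67% in ASO mice, against 1.54, 4.87 and 1.17% in PBS mice. In dentate neurons, where the gene is scarcely found, 0.445% of 1123 cells (median 1194 UMIs) had a UMI, against 1037 UMIs as the median depth of oligodendrocytes. A positive oligodendrocyte carried 1.97, 1.08 and 1.87 Cdkn1a UMIs on average in the ASO mice, against 1.0, 1.05 and 1.0 UMIs in the PBS mice. ASO replicate 2 was thus close to the PBS mice in this measure too. In all, 29 ASO cells and 1 PBS cell had 2 or more, and the highest count in 1 cell was 7 in ASO and 2 in PBS oligodendrocytes.

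Gdf15, a secreted stress cytokine of the TGF-beta superfamily, had 13, 3 and 20 UMIs in the oligodendrocytes of the ASO mice and 0 in each PBS mouse. The positive cells numbered 10, 2 and 14 in the ASO mice, shares of 1.35, 0.385 and 3.47%. In PBS mice 0 of 1336 oligodendrocytes were positive, which allows a share of up to 0.225%, counting error alone considered. Against a floor of 3 UMIs over the PBS group, the pooled level of 19.5 CPM in ASO oligodendrocytes was at least 9.68-fold higher. This bound pools cells over mice and takes the ASO count as exact, so it does not cover the spread between mice. It does not hold for ASO replicate 2 by itself, which had 3 UMIs. Without ASO replicate 3, which held 20 of the 36 UMIs, the pooled level was 11.4 CPM and the bound at least 5.67-fold. Gdf15 is scarce throughout the table, with 86 UMIs in 60 cells, and oligodendrocytes held 41.9% of them. No Gdf15 UMI was found in dentate, CA1 or subiculum neurons of either group.

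Nupr1, a small nuclear protein induced by stress, had 29, 15 and 32 UMIs in oligodendrocytes of ASO mice, against 6, 7 and 4 in those of PBS mice. These were 34.8, 26.6 and 71.6 CPM in ASO and 11.4, 14.5 and 8.36 CPM in PBS mice, so every ASO mouse was above every PBS mouse. The mean level was 44.3 ± 24.0 CPM in ASO and 11.4 ± 3.07 CPM in PBS oligodendrocytes (SD, n = 3 each), and the fitted log2 fold change was 1.83 (SE 0.422), or 1.39 without ASO replicate 3. The share of positive cells was 2.97, 2.89 and 6.44% in ASO mice, against 1.1, 1.55 and 0.932% in PBS mice. In dentate neurons 0 of 1123 cells had a Nupr1 UMI, which allows up to 0.267%.

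Fam46a, which belongs to a family of noncanonical poly(A) polymerases, had 44, 16 and 28 UMIs in ASO and 17, 8 and 15 UMIs in PBS oligodendrocytes. Its level was 52.8, 28.3 and 62.7 CPM in ASO mice, against 32.3, 16.5 and 31.3 CPM in PBS mice, a log2 fold change of 0.79 (SE 0.325). ASO replicate 2 lay below 2 of the PBS mice, so the groups overlapped in level. The shares of positive cells did not overlap, at 4.18, 3.08 and 5.20% in ASO and 2.86, 1.77 and 2.56% in PBS mice. Tagln2, which encodes the actin-binding protein transgelin 2, is rare in oligodendrocytes, with 18, 9 and 3 UMIs in ASO and 4, 0 and 1 UMIs in PBS mice. Its share of positive cells was 2.29, 1.16 and 0.743% in ASO mice, against 0.659, 0 and 0.233% in PBS mice, also without overlap. When each cell was thinned to 500 UMIs, the groups stayed apart for Gdf15 and Nupr1 and overlapped for Tagln2, Fam46a and Trp53inp1. Cdkn1a, which overlapped before thinning, had 2.83, 1.93 and 4.46% in ASO and 0.44, 1.33 and 0.699% in PBS mice after it, without overlap. Over the 7140 genes fitted in oligodendrocytes, which do not include Gdf15 or Tagln2, 7.03% had every ASO mouse above every PBS mouse in the unthinned share.

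**Figure D1:**
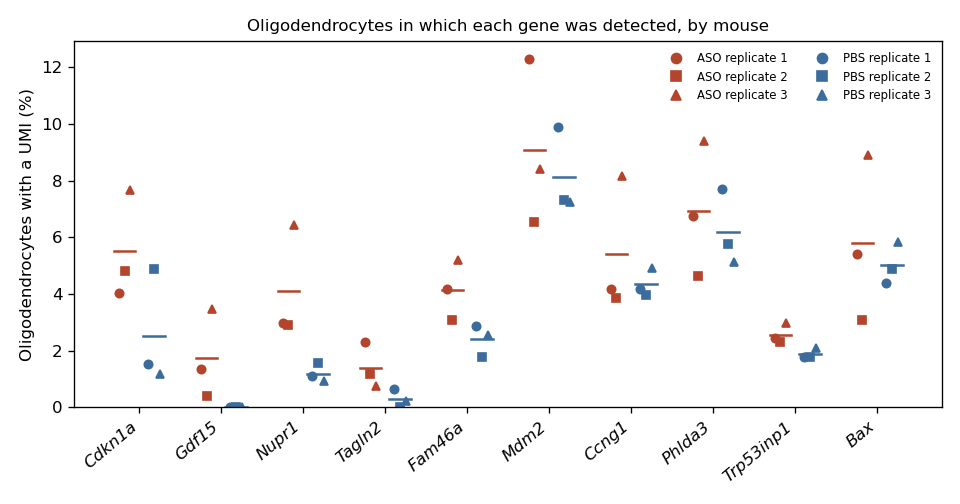
Share of oligodendrocytes (%) with a UMI of each of the 10 genes, 1 point per mouse, with horizontal lines at the group means (3 ASO mice in red, 3 PBS mice in blue). Nupr1, Gdf15, Tagln2, Fam46a and Trp53inp1 have every ASO mouse above every PBS mouse, while Cdkn1a, Mdm2, Ccng1, Phlda3 and Bax overlap.

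The other classical p53 targets were found in oligodendrocytes of both groups. Mdm2 was found in 159 ASO and 109 PBS cells, Phlda3 in 112 and 83, and Bax in 92 and 67. Ccng1 was found in 84 and 58 cells and Trp53inp1 in 42 and 25, beside 86 and 34 for Cdkn1a. Mdm2, the ligase that degrades p53 and is itself a p53 target, was at 117, 63.7 and 96.3 CPM in ASO mice, against 95.1, 78.6 and 71.0 CPM in PBS mice, a log2 fold change of 0.16 (SE 0.227) with ASO replicate 2 lowest of all 6 mice. Ccng1, which encodes cyclin G1, was at 40.8, 40.7 and 85.1 CPM in ASO and 38.0, 39.3 and 54.3 CPM in PBS mice, and ASO replicate 3 alone stood out. Phlda3, a pleckstrin homology protein that restrains Akt signalling, was at 65.9, 42.5 and 94.0 CPM in ASO and 66.5, 55.8 and 46.0 CPM in PBS mice. Bax, which opens the outer mitochondrial membrane in apoptosis, was at 48.0, 28.3 and 89.5 CPM in ASO and 39.9, 47.6 and 54.3 CPM in PBS mice. The highest mouse was an ASO mouse for each of these 4 genes, and for Mdm2, Phlda3 and Bax so was the lowest, ASO replicate 2, so the groups overlapped. Trp53inp1, a p53-induced nuclear protein linked to autophagy, was at 22.8, 21.2 and 29.1 CPM in ASO and 15.2, 18.6 and 20.9 CPM in PBS mice. Its ASO mice lay just above its PBS mice in CPM of all UMIs, at 12 to 19 UMIs per ASO mouse.

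Of the 10 genes, 8 had enough counts for the edgeR fit in oligodendrocytes, and Gdf15 and Tagln2 did not. All 8 had a positive log2 fold change, with a median of 0.298, against 0.00687 over all 7140 genes fitted. Over those 7140 genes, 5.85% had every ASO mouse above every PBS mouse in normalised level, and of the 8 members Nupr1 alone did. Trp53inp1 overlapped after normalisation, with its lowest ASO mouse at 22.4 and its highest PBS mouse at 22.6 normalised CPM. Without ASO replicate 3, 5 of the 8 stayed positive, and Bax, Ccng1 and Phlda3 turned to -0.30, -0.15 and -0.06. The 10 genes together made 490, 320 and 710 CPM in ASO oligodendrocytes, against 319, 318 and 299 CPM in PBS oligodendrocytes, so ASO replicate 2 was close to the PBS mice. ASO replicates 1 and 3 carried most of the difference.

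The genes were next counted per cell. In ASO mice 67 of 741, 24 of 519 and 48 of 404 oligodendrocytes held at least 2 of the 10 genes (9.04, 4.62 and 11.9%), against 21 of 455, 17 of 452 and 17 of 429 in PBS mice (4.62, 3.76 and 3.96%). ASO replicate 2 and PBS replicate 1 were level, and the other ASO mice were above all PBS mice. At least 3 genes were held by 2.83, 0.385 and 5.69% of ASO and by 0, 0.885 and 1.40% of PBS oligodendrocytes. At least 4 were held by 16 ASO cells (8, 2 and 6 per mouse) and by 0 PBS cells, and the most in any cell was 5 in ASO and 3 in PBS mice. When each cell was thinned to 500 UMIs, 3.10, 1.73 and 5.94% of ASO cells and 0.22, 0.885 and 1.17% of PBS cells held at least 2 genes, and the groups did not overlap. The difference in the share with at least 2 genes was 4.4 percentage points (ASO minus PBS), 2.72 without ASO replicate 3, 6.35 without ASO replicate 2, the library with erythroid RNA, and 4.33 without PBS replicate 3, the library low in choroid plexus RNA. As these counts rest on genes selected in the same cells, they have no test.

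Cdkn1a and Gdf15 were found together most closely. Of the 26 ASO oligodendrocytes with Gdf15, 20 also had Cdkn1a (76.9%), whereas 66 of the 1638 cells without Gdf15 did (4.03%). These 20 cells came from all 3 ASO mice, 8, 2 and 10 in number. Among the 86 ASO oligodendrocytes with Cdkn1a, 25.6% had Ccng1, 19.8% Mdm2, 19.8% Phlda3 and 15.1% Fam46a, against 3.93, 9.0, 6.02 and 3.49% of the 1578 cells without Cdkn1a. Nupr1 was found in 10.5% of the cells with Cdkn1a and in 3.42% of those without. In PBS mice 34 oligodendrocytes had Cdkn1a, of which 1 had Ccng1, 3 had Mdm2, 4 had Phlda3 and 0 had Fam46a, Nupr1 or Gdf15. Of the 1302 PBS cells without Cdkn1a, 4.38% had Ccng1, 8.14% Mdm2, 6.07% Phlda3, 2.46% Fam46a, 1.23% Nupr1 and 0% Gdf15. Counts of 0 among 34 cells cannot be told from such low shares.

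**Figure D2:**
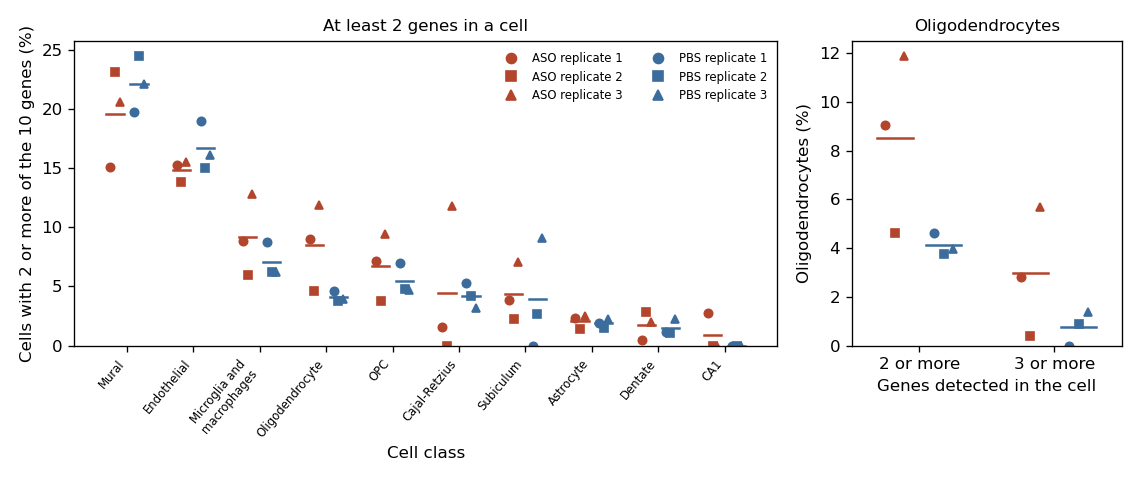
Left, share of cells (%) holding at least 2 of the 10 genes in each class with 20 or more cells in every mouse, 1 point per mouse and lines at group means (ASO red, PBS blue). Right, the same for oligodendrocytes with 2 or more and with 3 or more genes, where ASO replicates 1 and 3 lie above the PBS mice and ASO replicate 2 is level with the highest PBS mouse for 2 or more genes and lies among the PBS mice for 3 or more.

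The 139 ASO oligodendrocytes with at least 2 of the genes were set beside the remaining 1525 for RNA outside the 10 genes. Several of the 10 were selected as high in a small group of ASO oligodendrocytes, so differences in other RNA are not independent of that choice. Both sets were formed from the same libraries and are described without a test. The 139 cells had a median depth of 1220 UMIs, against 1029 UMIs in the remaining cells. The part of depth in the values that follow was not tested. Myelin and oligodendrocyte markers summed to 13400, 21800 and 11400 CPM in the cells with 2 or more genes of the ASO mice, against 18700, 22900 and 19900 CPM in their remaining oligodendrocytes. All 6 of these markers were lower in the pooled cells with 2 or more genes. In PBS mice the 55 cells with at least 2 genes had 21100 CPM of the markers, against 22100 CPM in the remaining cells. Other p53 pathway genes (28 of 30 listed were in the table) summed to 1250 CPM in the ASO cells with 2 or more genes, against 834 CPM in the remaining ASO cells, and to 900 and 872 CPM in the matching PBS cells. Rps27l had the largest difference of these in the ASO cells, at 306 against 98.0 CPM. Some were lower, such as Rrm2b at 272 against 289 CPM. Markers of committed oligodendrocytes (Bmp4, Enpp6, Neu4, Bcas1, Gpr17 and Tcf7l2) summed to 772, 663 and 695 CPM in the ASO cells with 2 or more genes. In the remaining ASO cells they summed to 649, 563 and 578 CPM. The matching PBS cells had 541, 849 and 482 CPM, against 540, 624 and 531 CPM. Precursor markers summed to 80.6, 36.8 and 203 CPM in the ASO cells with 2 or more genes, against 41.5, 53.9 and 41.3 CPM in the remaining cells. Of the 6 precursor markers, Vcan was at 46.3 CPM in the ASO cells with 2 or more genes, against 4.78 CPM in the remaining cells. Its value rested on 8 UMIs in 6 cells, at 11.5, 0 and 119 CPM per ASO mouse. Ptprz1 was at 63.6 against 30.5 CPM and Cacng4 at 5.78 against 4.18 CPM. Pdgfra, Cspg4 and C1ql1 were at 0 in the ASO cells with 2 or more genes, on a background of 5, 5 and 0 UMIs in all the remaining ASO cells. The part of these markers in the values was not tested. Macrophage markers were at 0 CPM in the ASO cells with 2 or more genes, against 12.6 CPM in the remaining ASO cells. Markers of neurons (260 against 235 CPM), mural cells (80.9 against 63.4), ependymal cells (86.7 against 55.6) and fibroblasts (28.9 against 25.1) were higher. Those of astrocytes, microglia, endothelial cells, choroid plexus and erythroid cells were lower. A mural marker was found in 10.4, 8.33 and 8.33% of the cells with 2 or more genes, against 5.93, 2.42 and 4.21% of the others. The part of such RNA was not tested. The median doublet score was 0.0332, 0.0537 and 0.0242 in the ASO cells with 2 or more genes, against 0.0423, 0.0462 and 0.0298 in the remaining ones, so it was higher in those of ASO replicate 2 and lower in those of the others. It was higher in the cells with 2 or more genes of each PBS mouse.

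Among genes outside the set, Syt4, a synaptotagmin of vesicle traffic, had the highest ratio. It reached 867 CPM in ASO oligodendrocytes with 2 or more of the 10 genes, against 34.1 CPM in the remaining ASO cells, and was 0 and 2.81 CPM in the matching PBS cells. Per ASO mouse Syt4 was at 1260, 184 and 610 CPM in those cells, against 45.5, 11.2 and 43.8 CPM in the remaining ones. Ppp1r17, an inhibitor of protein phosphatases, followed with 225 against 30.5 CPM, and Marcks, which binds actin and the plasma membrane, with 249 against 55.6 CPM. Syt4, Ppp1r17 and Marcks were already known as raised in the ASO oligodendrocytes of these counts, so their values here are not independent of earlier results. Rps27l, a ribosomal protein and p53 target, had 306 CPM against 98.0 CPM, and was higher in each ASO mouse. Others of the 15 genes with the highest ratios were Zmiz1, Galc (a lysosomal galactosylceramidase), Pcdh17, Snhg5, Gpd1 and Cadm2, at ratios of 1.80 to 2.38 computed after adding 50 CPM. The other genes of the integrated stress response summed to 2660, 2030 and 2560 CPM in the ASO cells with 2 or more genes, against 2090, 2320 and 2230 CPM in the remaining cells, so ASO replicate 2 ran the other way. Among genes of that list picked after their values were seen, Ddit3, which encodes CHOP, was at 145 CPM against 63.4 CPM, Slc3a2 at 197 against 110 CPM and Atf4 at 156 against 93.9 CPM, while Psat1 was at 376 against 534 CPM, Ddit4 at 86.7 against 141 CPM and Phgdh at 156 against 203 CPM. The lowest ratios were those of the haemoglobin gene Hbb-bs (63.6 against 290 CPM), Anln (283 against 734 CPM), Spock3, the fatty acid elongase Elovl6 and the immediate early gene Fosb. Hbb-bs stood at 738 CPM in the remaining cells of ASO replicate 2 and at most at 79.0 CPM in those of the other ASO mice, so its ratio follows that library.

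**Figure D3:**
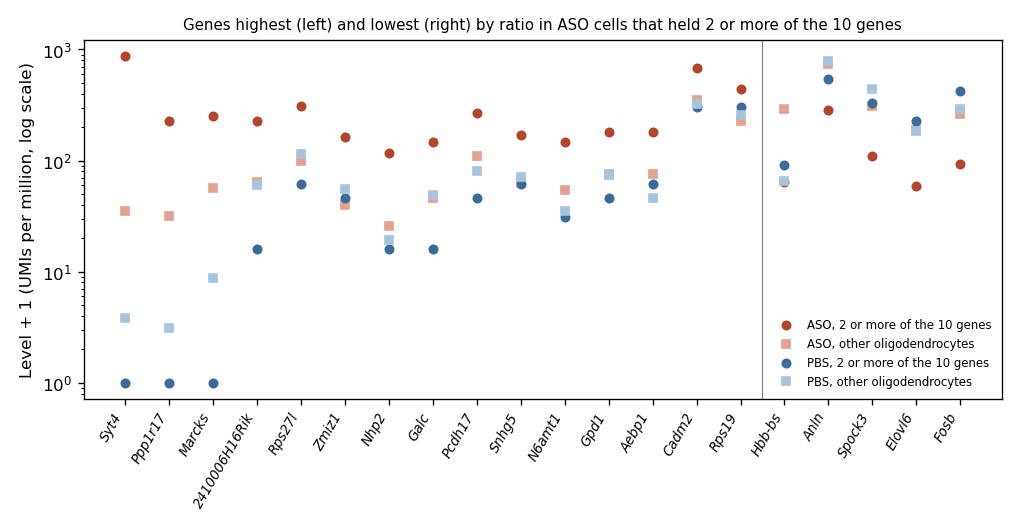
Level plus 1 (CPM, log scale) of the 15 genes with the highest and the 5 with the lowest ratio in ASO oligodendrocytes with 2 or more of the 10 genes, in 4 sets of pooled cells. Syt4 is at 867 CPM in the ASO cells with 2 or more genes, 34.1 CPM in the remaining ASO cells and 0 CPM in the PBS cells with 2 or more genes.

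A list of 9 genes raised in ASO oligodendrocytes in earlier work on these counts (Cntn1, Marcks, Ppp1r17, Syt4, Mgst1, Gria2, Kank1, Cela1 and Rnase4) gives another way to mark the cells, again selected on these libraries. Several of the 10 stress genes were also chosen as high in ASO oligodendrocytes. The lack of PBS cells and the overlap of the lists are therefore not independent of how the genes were chosen. At least 3 of the 9 were found in 33, 17 and 21 ASO oligodendrocytes and in 0 PBS oligodendrocytes. Of these 71 cells, 43.7% held at least 2 of the 10 stress genes, against 6.78% of the remaining 1593 ASO cells and 4.12% of the 1336 PBS cells. Per ASO mouse the share in the marked cells was 48.5, 11.8 and 61.9%. Cdkn1a was found in 28.2% of the marked cells, 4.14% of the remaining ASO and 2.54% of the PBS cells, and Fam46a in 31.0, 2.89 and 2.40%. Gdf15 (15.5, 0.942 and 0%), Nupr1 (18.3, 3.14 and 1.20%) and Tagln2 (16.9, 0.879 and 0.299%) had the same order in the pooled cells. In ASO replicate 2, however, Nupr1 was found in 0 of 17 marked cells and in 2.99% of the remaining ones, and Cdkn1a in 11.8 and 4.58%. Phlda3 was found in 15.5% of the marked cells and Mdm2 in 14.1%, against 6.34 and 9.35% of the remaining ASO cells. Trp53inp1 (2.82, 2.51 and 1.87%) and Bax (4.23, 5.59 and 5.01%) were nearly level. The marked cells were deeper, with a median of 1273 UMIs against 1030 in the remaining ASO and 1034 in the PBS cells, and the part of depth in these shares was not tested.

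**Figure D4:**
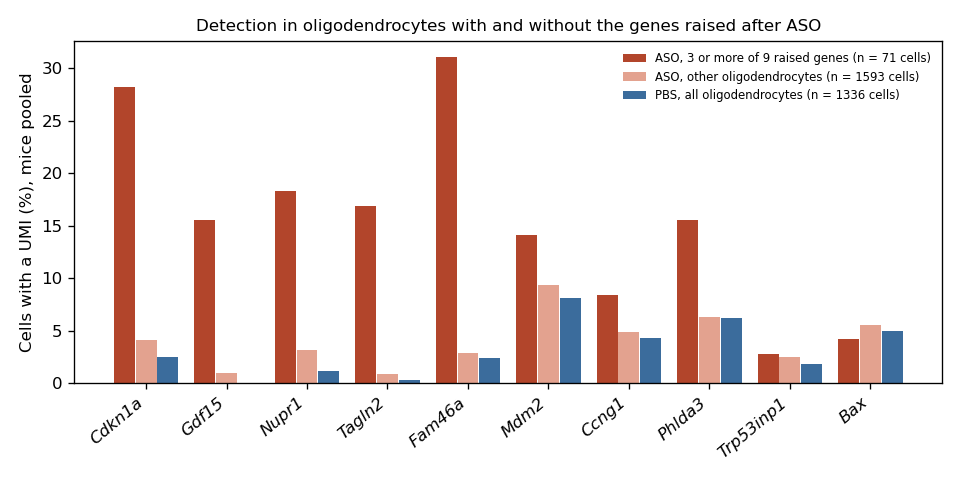
Share of cells (%) with a UMI of each gene in ASO oligodendrocytes with 3 or more of the 9 raised genes (71 cells), the remaining ASO oligodendrocytes (1593) and all PBS oligodendrocytes (1336), mice pooled. Fam46a, Cdkn1a, Nupr1, Tagln2 and Gdf15 differ most, and Bax and Trp53inp1 are nearly level.

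Across the hippocampus the 10 genes belong to different cells, and oligodendrocytes held most of the UMIs of 1 of them. Classes were defined by the authors from the same table, so levels by class are described without a test, as mean CPM and SD over all 6 mice in the 10 classes with at least 20 cells in every mouse. Cdkn1a was highest in endothelial cells (255 ± 40.2 CPM), mural cells (244 ± 62.8) and microglia and macrophages (178 ± 51.3), which overlapped, with oligodendrocytes sixth at 53.3 ± 44.0 CPM and CA1 neurons at 0. Tagln2 was a vascular transcript, at 381 ± 64.7 CPM in mural and 329 ± 20.8 CPM in endothelial cells, apart from oligodendrocyte precursors at 85.7 ± 18.8 CPM, and oligodendrocytes held 2.87% of its UMIs. Nupr1 was highest in mural cells (177 ± 29.0 CPM), apart from microglia and macrophages (46.6 ± 8.36), and reached 924 CPM in the pooled 107 fibroblast-like cells. Fam46a was highest in microglia and macrophages (95.7 ± 23.7 CPM), apart from oligodendrocytes (37.3 ± 17.1). Phlda3 alone was chiefly oligodendrocytic, at 61.8 ± 18.6 CPM, apart from every mouse of the next class, Cajal-Retzius neurons (14.1 ± 17.3), with 77.1% of its 266 UMIs in oligodendrocytes.

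Mdm2, Ccng1 and Bax were found in every one of these classes at similar levels, and neighbours in their order overlapped throughout. Mdm2 ran from 91.0 ± 71.4 CPM in Cajal-Retzius to 39.4 ± 22.8 CPM in CA1 neurons, with oligodendrocytes at 87.0 ± 19.6 CPM, and reached 258 CPM in 190 pooled ependymal cells. Ccng1 ran from 75.5 ± 52.4 CPM in Cajal-Retzius neurons to 35.1 ± 23.6 CPM in precursors. Bax ran from 74.9 ± 24.8 CPM in precursors to 22.3 ± 20.2 CPM in Cajal-Retzius neurons. Trp53inp1 was highest in mural (68.6 ± 44.2 CPM) and endothelial cells (57.2 ± 9.38) and stood at 21.3 ± 4.64 CPM in oligodendrocytes. Gdf15 averaged 13.3 ± 17.7 CPM in microglia and macrophages and 11 ± 17.7 CPM in oligodendrocytes. Over all 17 classes, small ones included, the highest mean CPM was in fibroblast-like cells for Nupr1, Fam46a and Gdf15. It was in ependymal cells for Mdm2 and Ccng1 and in the neurogenesis class (41 cells) for Trp53inp1.

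**Figure D5:**
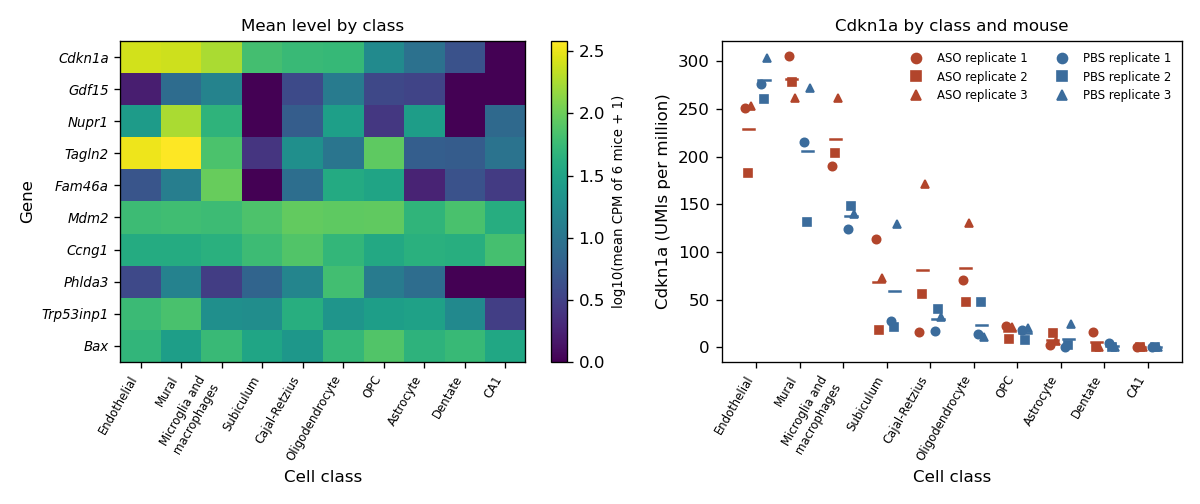
Left, log10 of the mean CPM plus 1 over 6 mice for each gene in the 10 classes with 20 or more cells in every mouse. Right, Cdkn1a in CPM by class and mouse (ASO red, PBS blue, lines at group means), highest in endothelial, mural and microglial cells, where ASO mice lie above PBS mice in microglia and macrophages and below them in endothelial cells.

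Outside oligodendrocytes the treatment could be tested, and no member passed. All cells of the other classes were summed per mouse, 8 members could be fitted (Gdf15 and Phlda3 had too few counts), and edgeR called 0 of 13451 genes (0.0%) at an adjusted p of 0.05. Cdkn1a was at 115, 80.6 and 123 CPM in the ASO mice, against 90.0, 91.8 and 101 CPM in the PBS mice, so the groups overlapped, and edgeR gave a log2 fold change of 0.17 with SE 0.161 (adjusted p = 1.0). Tagln2 was at 122, 110 and 108 CPM in ASO and 104, 101 and 98.0 CPM in PBS mice, and edgeR gave a log2 fold change of 0.17 with SE 0.135 (adjusted p = 1.0). Tagln2 was the 1 fitted member whose ASO mice all lay above the PBS mice, as did 4.39% of all genes fitted. Nupr1 (0.14), Trp53inp1 (0.09) and Ccng1 (0.08) had positive and Bax (-0.11), Fam46a (-0.14) and Mdm2 (-0.16) negative log2 fold changes, none with an unadjusted p under 0.05. The median of the 8 was 0.0845, against 4.27e-06 over all genes fitted. Gdf15, not fitted, had 18, 1 and 17 UMIs outside oligodendrocytes in ASO mice, against 8, 3 and 3 in PBS mice.

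In single classes the lowest p of any member was that of Cdkn1a in microglia and macrophages. It had 91, 42 and 85 UMIs there in ASO mice and 37, 45 and 52 UMIs in PBS mice, or 190, 204 and 262 CPM against 124, 148 and 140 CPM. Every ASO mouse was above every PBS mouse, and so was the share of positive cells, at 13.2, 11.9 and 14.8% in ASO and 8.06, 9.69 and 7.95% in PBS mice. The log2 fold change was 0.68 (SE 0.204), with an edgeR p of 0.00193 unadjusted and 0.44 adjusted over the 5476 genes fitted, of which 0.0365% were called, so the difference did not pass. Cells in which a macrophage marker was counted made up 6.35, 6.97 and 7.07% of this class in ASO mice, against 4.4, 6.23 and 2.84% in PBS mice. With those cells left out the log2 fold change was 0.78 (edgeR adjusted p = 0.286). Gdf15 had 10, 0 and 15 UMIs in this class in ASO mice and 1, 2 and 1 in PBS mice, again with ASO replicate 2 low.

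In endothelial cells the levels of Cdkn1a ran the other way, with 251, 183 and 253 CPM in ASO mice and 276, 261 and 304 CPM in PBS mice. All ASO mice were below all PBS mice, also in the share of positive cells (20.9, 17.4 and 20.3% in ASO, 23.5, 21.5 and 24.9% in PBS mice). The log2 fold change was -0.30 with SE 0.190 (adjusted p = 0.999 by edgeR), and 0.0% of 6224 genes were called. Mural markers summed to 3040, 3510 and 2850 CPM in this class in ASO mice, against 3480, 4180 and 4620 CPM in PBS mice, and their part in the Cdkn1a values was not tested. The effect in microglia and macrophages minus that in endothelial cells, a contrast picked after the values were seen, was 0.94 on the log2 scale for Cdkn1a (SE 0.256). It did not pass, with a p of 0.000304 unadjusted and an adjusted p of 0.257 by edgeR over 7611 genes, of which 0.0131% were called.

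In the remaining classes no member was called. In mural cells Cdkn1a was at 306, 278 and 262 CPM in ASO and 215, 131 and 272 CPM in PBS mice (adjusted p = 0.868 by edgeR, log2 fold change 0.40 with SE 0.321), beside 0.259% of all 1546 genes called. In oligodendrocyte precursors, where 0.0441% of genes were called, Mdm2 was at 95.9, 56.3 and 62.3 CPM in ASO mice, all below the 106, 109 and 105 CPM of the PBS mice (adjusted p = 1.0 by edgeR, log2 fold change -0.58 with SE 0.331). Cdkn1a had 4, 2 and 2 UMIs in precursors of ASO mice and 3, 1 and 5 in those of PBS mice and was not fitted there. Astrocytes and dentate neurons had 0.0% of genes called, and the members farthest from 0 were Trp53inp1 in astrocytes (log2 fold change 0.56, SE 0.394) and Ccng1 in dentate neurons (-0.64, SE 0.453), both with an edgeR adjusted p of 1.0.

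The share of positive cells was compared in 81 pairs of a gene and a class outside oligodendrocytes by permuting the mice exactly (two-sided, 20 assignments, smallest possible p 0.1). In 4 pairs the groups did not overlap (exact permutation p = 0.1, adjusted p = 1.0 over the 81 pairs): Cdkn1a in microglia and macrophages, higher, and Cdkn1a in endothelial cells, Fam46a in dentate neurons and Trp53inp1 in Cajal-Retzius neurons, lower. Among all genes and classes 9.59% of pairs did not overlap. Fam46a in dentate neurons rests on 0 positive cells in ASO and 5 in PBS mice. The share of cells with at least 2 members overlapped between groups in all 9 tested classes other than oligodendrocytes (exact permutation p of 0.3 to 1.0). At least 3 members were held by 2.38, 3.85 and 3.17% of mural cells in ASO mice, against 0, 2.04 and 1.3% in PBS mice, which did not overlap (exact permutation p = 0.1, the smallest possible) and rest on 8 ASO and 2 PBS cells. Before thinning the other tested classes overlapped at this cut. After thinning 1 ASO mural cell and 0 PBS mural cells held at least 3. Microglia and macrophages with at least 3 were then at 0.227, 0 and 0.337% in ASO mice, against 0.366, 0.346 and 0.568% in PBS mice. These shares did not overlap (exact permutation p = 0.1) and rest on 2 ASO and 4 PBS cells. The share of endothelial cells with at least 2 members was 15.3, 13.8 and 15.5% in ASO mice, against 19.0, 15 and 16.1% in PBS mice. For mural cells the share with at least 2 was 15.1, 23.1 and 20.6% in ASO mice, against 19.7, 24.5 and 22.1% in PBS mice. Endothelial and mural cells thus held at least 2 of these genes more often than oligodendrocytes in either group, as a description over classes.

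Other genes of the same pathways, from lists drawn up by name, did not pass in any fit. In oligodendrocytes, where 0.21% of genes were called, 14 other p53 pathway genes were fitted, of which 4 were higher and 10 lower with 0 called (median log2 fold change -0.115, lowest edgeR adjusted p 0.684, 2 with an unadjusted p under 0.05). The p53 targets with most counts there were level: Rrm2b, a ribonucleotide reductase subunit, was at 304 ± 14.2 normalised CPM in ASO and 306 ± 22.4 in PBS mice, and Rps27l at 122 ± 5.21 and 121 ± 17.3 (SD, n = 3 each). Btg2, an antiproliferative p53 target, was at 58.5 ± 16.2 in ASO and 84.2 ± 19.0 in PBS mice (adjusted p = 0.725 by edgeR, log2 fold change -0.54 with SE 0.250). Of 14 genes of the integrated stress response fitted, 8 were higher and 6 lower with 0 called (lowest edgeR adjusted p 0.118, 2 with an unadjusted p under 0.05). That lowest value belonged to Ddit4, an inhibitor of mTOR signalling, at 148 ± 34.9 normalised CPM in ASO and 243 ± 3.42 in PBS mice. Of 7 other cyclins and inhibitors of cyclin-dependent kinases, 6 were higher and 1 lower with 0 called and 0 with an unadjusted p under 0.05, and Cdkn1b, which encodes p27, was at 138 ± 33.8 in ASO and 125 ± 30.7 in PBS mice.

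Outside oligodendrocytes 23 other p53 pathway genes gave 10 higher and 13 lower, 23 stress response genes 12 higher and 11 lower, 14 cyclins and inhibitors 4 higher and 10 lower, and 7 proliferation genes 2 higher and 5 lower, with 0 called in each list. An unadjusted p under 0.05 occurred for 0, 1, 1 and 0 of them. Ccnd3, which encodes cyclin D3, was at 84.4 ± 21.2 normalised CPM in ASO and 126 ± 10.2 in PBS mice (adjusted p = 1.0 by edgeR, log2 fold change -0.60 with SE 0.162). Immediate early and dissociation genes, which follow handling of tissue, had 12 of 12 lower in ASO oligodendrocytes with 0 called (lowest edgeR adjusted p 0.291, 5 with an unadjusted p under 0.05), with Fos at 864 ± 138 against 1090 ± 58.0 normalised CPM. Their part in the values of the 10 genes was not tested.

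Over 60 levels, 10 classes in 6 mice, the genes whose pattern was most like the sum of the 10 on the log2(CPM + 10) scale were Klf4 (Pearson r = 0.857), Itgb1 (0.838), Tpm4 (0.832), Dusp1 (0.821) and BC028528 (0.818). The points share libraries and depth, so the correlations are given as a description. Among the 10 genes themselves Cdkn1a (0.855) and Tagln2 (0.839) followed the sum most closely, and Bax (0.155) and Ccng1 (0.024) least.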

How the data were processed

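The authors deposited 1 table of raw UMI counts (genes by cells), with the class and mouse of each cell in its column names. Reads were handled with bcl2fastq and STAR 2.5.0c on mm10 (GRCm38), per the submitters' processing notes, and how UMIs were assigned to genes is not given there. The 10 genes and all lists were chosen with earlier results of these data known. Cells called as doublets by Scrublet (scanpy 1.11.5) were left out. Replicate numbers follow accession order and pair no mice. Levels in CPM are counts per 1000000 UMIs of the class. For each mouse, counts were summed outside oligodendrocytes and within each class where every mouse had at least 20 cells, then tested with edgeR 4.0.16 (R 4.3.3) by glmQLFit and glmQLFTest after filterByExpr and TMM, with Benjamini-Hochberg adjustment over all genes fitted and a threshold of 0.05. Normalised CPM are those of the fit. Shares were compared by exact permutation over mice (scipy 1.17.1). Genes named beside cells with 2 or more members were the 15 with the largest and the 5 with the smallest ratio of CPM + 50, of genes outside the set; the 15 had at least 20 UMIs in those cells and were higher in each ASO mouse. From each other list, up to 4 genes with the most UMIs in a fit could be named. The steps were checked on simulated data. Alternatives were DESeq2 1.42.0 and its size factors, limma 3.58.1 (voom), no filter, doublets kept, a mitochondrial limit of 10% in place of the highest 15.0% in the table, a term for 3 technical sets of mice, thinning to 500 UMIs, and leaving out cells with precursor markers or each mouse in turn. Intervals and floors cover counting error only. An oligodendrocyte marker is not reported here and was left out of the marker sums.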

Additional observations from a re-analysis of the deposited data

Results flagged for a closer look

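Cdkn1a differed in direction between microglia and macrophages, at a log2 fold change of 0.68, and endothelial cells, at -0.30. Every ASO mouse lay above every PBS mouse in the first class and below every PBS mouse in the second. The test of the difference itself gave 0.94 (SE 0.256, edgeR adjusted p = 0.257) and did not pass.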

How the results depend on the processing

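Over 449 recomputed values of the 34 tested pairs of a gene and a fit, 418 kept their direction, 31 reversed and none passed the threshold, with a lowest edgeR adjusted p of 0.286. With 8 members higher in oligodendrocytes, leaving out a mouse gave 5 to 8 and no filter on low counts gave 10. The 4 pairs of gene and class with shares apart became 9 to 14 when a mouse was left out, since fewer mice overlap less. The share of oligodendrocytes with at least 2 genes differed by 4.4 percentage points, 2.72 without ASO replicate 3 to 6.35 without ASO replicate 2, 2.84 after thinning and 3.61 without cells bearing precursor markers. After thinning the share difference was 0.5 points for Fam46a and 0.0353 for Trp53inp1. Reversed values were Ccng1 in astrocytes at 0.31 with a mitochondrial limit of 10%, Bax in astrocytes at -0.00897 with a term for technical sets, -0.0169 with limma voom, -0.0191 with doublets kept and -0.18 with the limit of 10%, and Nupr1 in mural cells at 0.0691 with no filter. Leaving out a mouse reversed, outside oligodendrocytes, Fam46a (-0.368 to 0.0449), Mdm2 (-0.297 to 0.0362), Ccng1 (-0.0669 to 0.273) and Trp53inp1 (-0.12 to 0.23). In astrocytes it reversed Mdm2 (-0.29 to 0.12), Ccng1 (-0.24 to 0.11) and Bax (-0.15 to 0.24), and in microglia and macrophages Nupr1 (-0.0485 to 0.366) and Mdm2 (-0.14 to 0.49). In mural cells it reversed Nupr1 (-0.17 to 0.18), in dentate neurons Mdm2 (-0.345 to 0.0473) and Bax (-0.34 to 0.20), and in precursors Tagln2 (-0.14 to 0.24) and Bax (-0.49 to 0.11). The cause was not tested. The labels give the mice no shared replicate numbers. No label names a batch. The 3 technical sets were formed by ordering the mice by their count ratio of the mitochondrial transcripts mt-Rnr2 and mt-Cytb, then taking neighbours in pairs. The ratios were 4.48 and 7.16 for ASO and PBS replicate 2, 10.9 and 12.9 for replicate 1, and 15.9 and 16.7 for replicate 3. Whether these pairs were real batches is not known. Each set held 1 ASO and 1 PBS mouse. With a term for them as a block no member passed and Bax in astrocytes, at -0.00897, alone reversed.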
